A study of Homo sapiens with 2 samples.

Results

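The 8 genes described here encode the mitotic kinases Aurora A (AURKA), Aurora B (AURKB) and NEK2, the Aurora A cofactors TPX2 and BORA, and the partners of Aurora B in the chromosomal passenger complex, which are INCENP, survivin (BIRC5) and borealin (CDCA8). They were chosen by name as a functional group, with earlier results of these data known, and every probe that a RefSeq accession assigned to them was read, which gave 9 probes for 8 of the 21743 genes named on the array. MRC-5, a cell line derived from human fetal lung fibroblasts, received either control siRNA or periostin siRNA (10 nM, with RNA taken 48 h later), and the comparison asks which transcripts depend on periostin, the matricellular protein that the siRNA targets. Apart from the siRNA, no treatment distinguished the 2 cultures in the labels, and 1 RNA sample of each was hybridized to 1 single-colour Agilent array. With 1 array per condition no test between the conditions was possible, so every ratio compares 1 culture with 1 other.

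Aurora A and Aurora B are serine/threonine kinases that resemble each other in sequence and act at different places in the dividing cell. Aurora A works at centrosomes and along spindle microtubules, where TPX2 binds and activates it, and together with Bora it switches on the kinase PLK1 before mitosis. Aurora B works within the chromosomal passenger complex, in which INCENP is the scaffold and survivin and borealin bring the kinase to the inner centromere, where it releases wrongly attached microtubules before the complex moves to the central spindle for cytokinesis. NEK2 sits at the centrosome and loosens the protein linker that holds the 2 centrosomes together before they part. Transcripts of these genes are made mainly in G2 and M in growing cells, and their promoters are known as targets of the DREAM and MYB-MuvB complexes, which recognise the cell cycle genes homology region (CHR), and of NF-Y, which binds the CCAAT box.

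The promoter stretches of these genes are shown because they carry those elements close to the start of transcription. The RefSeq promoter table of GRCh38.p14 held 6 promoters, each with 250 bases before and 50 bases after an annotated start, for 5 of the 8 genes, and AURKA, TPX2 and BIRC5 were not matched. The letters TTTGAA (the common CHR form), TTCGAA (a CHR variant) and CCAAT were searched on both strands, a choice made after the array values were known. Capitals mark every match, and a CCAAT box on the other strand reads ATTGG. The stretches run 5′ to 3′ on the strand of the gene.
CDCA8 (chr1:37692396-37692515, + strand): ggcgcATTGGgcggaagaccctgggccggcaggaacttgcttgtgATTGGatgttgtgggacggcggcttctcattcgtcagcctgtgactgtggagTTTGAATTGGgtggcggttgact
INCENP (chr11:62123891-62124010, + strand): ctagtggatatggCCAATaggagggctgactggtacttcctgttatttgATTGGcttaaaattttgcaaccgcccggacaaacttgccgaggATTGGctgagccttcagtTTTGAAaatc
BORA (chr13:72727733-72727872, + strand): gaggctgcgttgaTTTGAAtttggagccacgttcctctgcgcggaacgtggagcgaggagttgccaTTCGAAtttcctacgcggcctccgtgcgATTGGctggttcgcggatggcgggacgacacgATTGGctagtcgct
NEK2 (chr1:211675622-211675741, - strand): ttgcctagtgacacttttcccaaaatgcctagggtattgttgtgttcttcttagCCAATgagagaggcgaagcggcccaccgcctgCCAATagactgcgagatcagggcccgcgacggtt
AURKB (chr17:8210266-8210385, - strand): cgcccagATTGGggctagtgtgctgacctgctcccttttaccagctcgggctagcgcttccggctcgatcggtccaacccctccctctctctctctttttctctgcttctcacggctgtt

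TTTGAA was present in the promoters of CDCA8, INCENP and BORA, 3 of the 5 genes. Counted by gene, as here, 18.2% of the 27305 genes in the table had it in at least 1 promoter, and counted by promoter 15.2% of the 35116 did. In CDCA8 it began at position -23 from the start and shared 1 base with a CCAAT box on the other strand, and in INCENP it began at -10. In BORA it lay farther away, at -177, followed at -124 by TTCGAA, a form that 1.45% of all promoters held. CCAAT on either strand was present in all 5 genes, in 39.7% of all genes and in 34.6% of all promoters, with 3 boxes in CDCA8 and INCENP, 2 in BORA and NEK2 and 1 in AURKB. The windows of NEK2 and AURKB held neither CHR form, which says only that these letters are not in these windows.

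**Figure D1:**
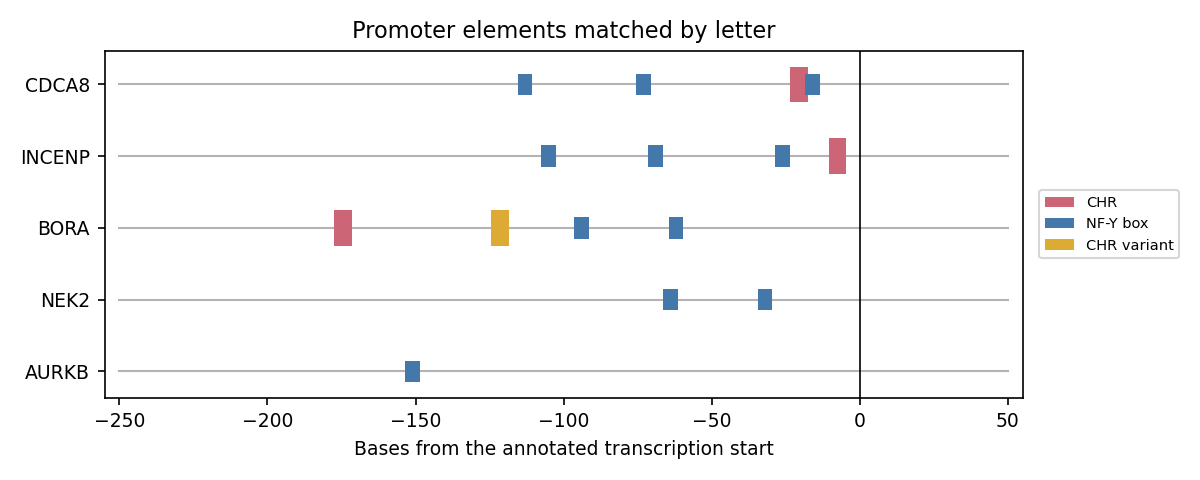
Position of the matched elements in the promoters of 5 genes, in bases from the annotated start (vertical line), with 250 bases before and 50 after it; red marks the common CHR form, yellow its variant and blue the CCAAT (NF-Y) box on either strand, and for AURKB the first of its 2 promoters is drawn. CDCA8 and INCENP have a CHR beginning at -23 and -10, BORA has its own farther upstream, and NEK2 and AURKB have blue boxes alone.

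Values are the background-subtracted signals of the scanner, scaled so that both arrays share a 75th percentile of 377. Well above background is the flag that the scanner software sets, and it was met by 58.0% of the 58717 non-control spots with control siRNA and by 58.9% with periostin siRNA, with no saturated spot. POSTN, the targeted gene, gave 2638 with control siRNA and 280 with periostin siRNA, so that its log2 ratio was -3.24, with an error of 0.20 as the scanner software propagates it for 1 spot. All 8 fibroblast markers checked (COL1A1, COL1A2, COL3A1, PDGFRB, THY1, DCN, LUM and FN1) were well above background on both arrays, with a summed signal of 162673 against 142945. Of the 6 epithelial markers CDH1 and NKX2-1 were not well above background on either array, while all 6 together summed to 3872 on the control array and 5737 on the other, mostly KRT18 and KRT8, and EPCAM went from 34.6 to 135. The 4 endothelial markers summed to 133 and 130, with PECAM1 not well above background. Of the leukocyte markers, CD68 went from 1528 to 2451 and PTPRC from 17.6 to 25.1, and LAPTM5 was not well above background on either array. The part of these shifts in the results was not tested.

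All 8 genes had a lower signal with periostin siRNA than with control siRNA, and 6 of them (BIRC5, NEK2, CDCA8, BORA, TPX2 and AURKB) were lower by more than 3-fold, the threshold the study used, against a background of 2.75% of the 16052 genes with a ratio. Expressed as log2 ratios (periostin siRNA over control siRNA), the differences of the 7 genes other than NEK2, whose ratio is a bound, ran from -3.45 for BIRC5 to -0.71 for INCENP, and the median over all 8 was -1.67, while the median over all genes was 0.06. Lower by more than 2-fold were 7 of the 8 genes, against 6.42% of all genes, and by more than 4-fold 3 of the 8, against 1.71%. None was higher by more than 2-fold, as 7.97% of all genes were. A ratio below 0 was found for all 8 under each of the 10 processing settings, and for 45.5% of all genes in the setting reported. Settings that differ only in scaling move all genes alike, by too little to change the sign of any of the 8. In RNA from a whole culture, fewer cells in G2 and M and less of these transcripts per cell cannot be told apart. BORA, TPX2 and AURKB lay within 1 spot error of the threshold. The count of 6 was 5 without scaling, where AURKB gave -1.57, and 2 under the normexp correction, a model of signal plus background with an offset of 50 added, which left BIRC5 and CDCA8 past 3-fold.

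**Figure D2:**
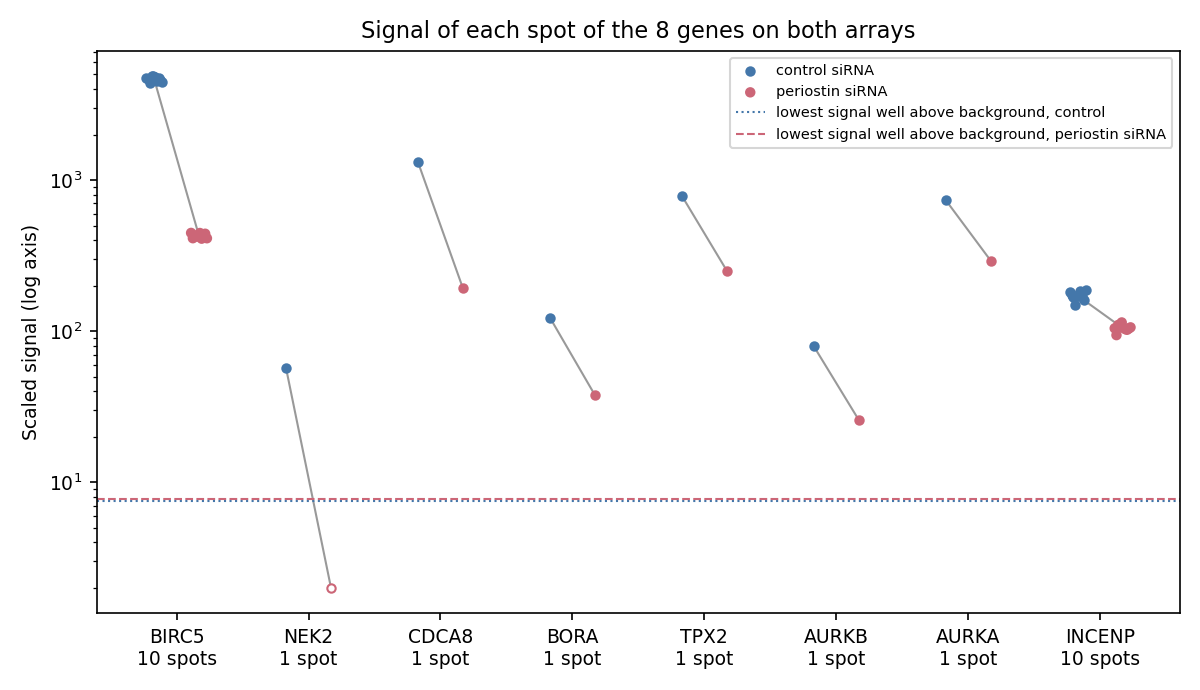
Scaled signal (log axis) of every spot of the brightest probe of each of the 8 genes with control siRNA (blue) and periostin siRNA (red), ordered by log2 ratio, with grey lines joining the geometric means and horizontal lines at the lowest signal well above background on each array; an open point is not well above background. In each gene the red points lie below the blue ones, without overlap between the 10 spots of BIRC5 or of INCENP, and NEK2 alone lies below the line.

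The transcript of survivin, the subunit that reads the phosphorylated histone H3 mark of the inner centromere, had the lowest ratio among the 7 genes whose ratio is not a bound. BIRC5 was measured by 1 probe printed 10 times, whose spots had signals from 4385 to 4857 with control siRNA, with a median of 4674, and from 409 to 447 with periostin siRNA, with a median of 424. The spots of the arrays were far apart, and the log2 ratio was -3.45 ± 0.06 (SD over 10 spots), so that 9.17% of the control signal remained. Of all genes with a ratio, 57 had a lower one. Borealin, which binds survivin and INCENP and helps to hold the complex on centromeric chromatin, came next in the complex. CDCA8 had 1 spot, with a signal of 1310 with control siRNA and 193 with periostin siRNA. Its log2 ratio was -2.77 (propagated error 0.20), or 14.7% remaining. The ratios of BIRC5 and CDCA8 differed by 0.68 on the log2 scale, with a combined spot error of 0.21. This joins 2 unlike errors, an SD over spots and the propagated error of 1 spot. A single spot of BIRC5 had a propagated error of 0.20, larger than the SD over its spots.

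The kinase and the scaffold of the complex had ratios nearer to 0 than those 2 subunits. AURKB, measured by 1 spot, had a signal of 79.3 with control siRNA and 25.9 with periostin siRNA. Its log2 ratio was -1.62 (propagated error 0.23), which is 3.06-fold lower and within that error of the threshold. Its control signal was 10.5 times the lowest signal well above background, and the normexp correction gave -0.75. INCENP, which binds and activates Aurora B through its C-terminal IN-box, had 10 spots with signals from 149 to 186 with control siRNA (median 172) and from 94.2 to 114 with periostin siRNA (median 105). These ranges did not overlap, but the log2 ratio of -0.71 ± 0.13 (SD over 10 spots) was the smallest difference of the 8 genes, with 61.2% of the signal remaining and 10.5% of all genes having a lower ratio. The gap between BIRC5 and INCENP, whose products bind each other directly, was 2.74 on the log2 scale with a combined spot error of 0.14, and that between AURKB and INCENP was 0.91 with an error of 0.26. Under the normexp correction INCENP gave -0.49 against -0.75 for AURKB, so the gap between these 2 was narrower and depended on the processing. In the setting reported the 4 subunits of 1 complex spanned from 1.63-fold to 10.9-fold lower.

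On the Aurora A side the values lay close together in the setting reported, and AURKB, at -1.62, lay within their range. AURKA itself had a signal of 735 with control siRNA and 293 with periostin siRNA from 1 spot. Its log2 ratio was -1.33 (propagated error 0.20). It was 2.51-fold lower, short of 3-fold under every setting run. TPX2, the microtubule-bound activator that also protects Aurora A from dephosphorylation, went from 785 to 252, a log2 ratio of -1.64 with an error of 0.20, and was past 3-fold by less than this error. BORA, the cofactor with which Aurora A phosphorylates PLK1, went from 123 to 37.8, a log2 ratio of -1.70 with an error of 0.21. The probes of TPX2 and BORA stood on 1 spot each. Under the normexp correction AURKA, TPX2 and BORA gave -1.14, -1.49 and -0.97.

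NEK2 was the 1 gene of the 8 that was not well above background with periostin siRNA. Its brighter probe gave 56.7 with control siRNA and 2.01 with periostin siRNA, and its other probe gave 32.1 and 1.68, with neither well above background on the periostin siRNA array. Set against the lowest signal well above background there, 7.77, the brighter probe was at least 7.30-fold lower and the other at least 4.14-fold lower. Both probes agreed in direction, but the size is a bound, and under the normexp correction the log2 ratio of the brighter one was -0.80.

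Ordered by log2 ratio and leaving out the bound of NEK2, the genes ran BIRC5, CDCA8, BORA, TPX2, AURKB, AURKA and INCENP. In the setting reported, 6 of the 21 pairs among these 7 genes differed by less than 2 combined spot errors. These were all the pairs among BORA, TPX2, AURKB and AURKA, which therefore cannot be ranked even within these arrays. BORA and AURKA, the ends of that group, differed by 0.37 with an error of 0.30. All these errors describe spots on a single slide and leave out any variation from culture to culture. They therefore do not rank the other pairs beyond these 2 arrays. No outlier flag was set on any spot of the 8 genes.

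**Figure D3:**
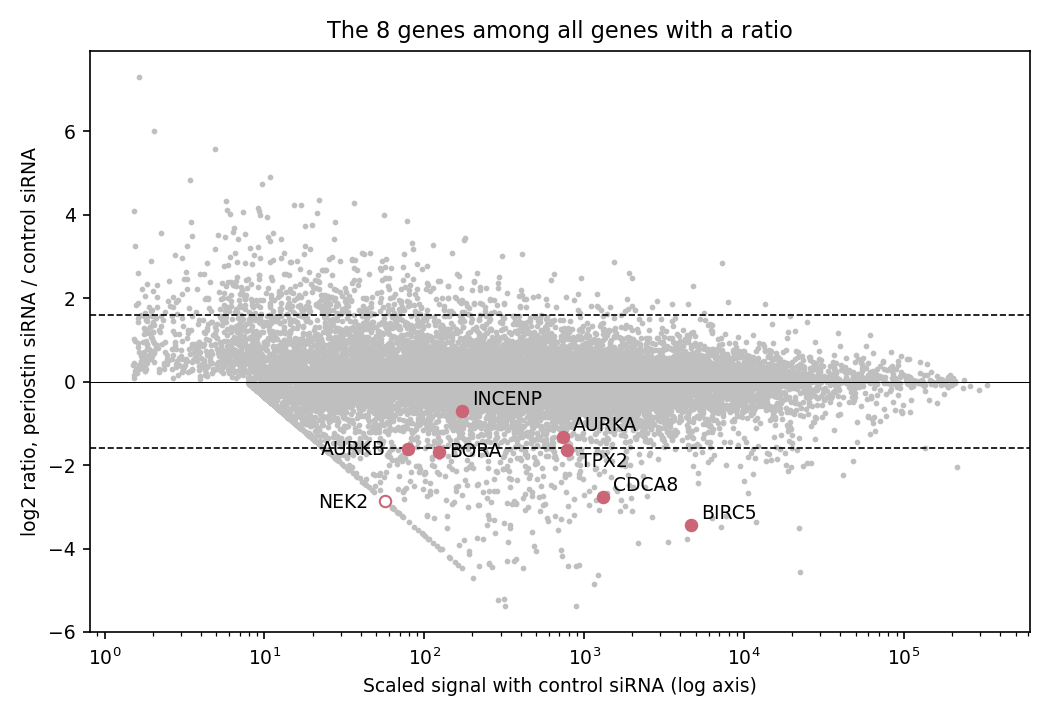
The log2 ratio (periostin siRNA over control siRNA) against the scaled control signal (log axis) for the 16052 genes with a ratio (grey) and the 8 genes (red, open for the bound of NEK2), with dashed lines at 3-fold; the slanted lower edge holds genes whose ratio is a bound. BIRC5 and CDCA8 lie well below the lower dashed line, BORA, TPX2 and AURKB on it, and AURKA and INCENP above it.

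AURKC, the third Aurora kinase, is known mainly from germ cells and can take the place of Aurora B in the passenger complex. It differed from its relatives in direction, with a signal of 13.9 with control siRNA and 48.0 with periostin siRNA from 1 spot. The log2 ratio was 1.79 (propagated error 0.28), or 3.46-fold higher. The share of all genes higher by more than 3-fold was 3.37%. The control signal was 1.84 times the lowest signal well above background, and the normexp correction gave 0.55, so that the ratio was above 0 but not past 3-fold under that setting.

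Genes that work with these kinases were described by lists, in which each gene is represented by its brightest probe. Of the 11 measured genes of the Aurora B substrate list, 8 were lower by more than 3-fold and none was higher past it. The shares of all genes with a ratio were 2.75% lower and 3.37% higher. The median log2 ratio of the list was -2.93. Under the normexp correction the count of lower genes was 4, and 1.19% of all genes were lower by more than 3-fold. KIF2C, the microtubule depolymerase of the centromere, went from 887 to 41.2, a log2 ratio of -4.43 with an error of 0.21. NDC80, the kinetochore protein that grips microtubules, went from 928 to 44.4, a log2 ratio of -4.38. KNL1 (-2.93 ± 0.20, SD over 10 spots), SKA3 (-4.01), KIF23 (-2.14) and CDCA5 (-1.66) were past 3-fold as well, and SKA1 and CENPA were at least 8.71-fold and at least 13.6-fold lower. STMN1, a microtubule-destabilising protein, was the highest of the list at -0.17, although its 5 probes ran from -0.17 to 0.89. Several substrates thus had lower ratios than AURKB itself.

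For the 14 genes that recruit or regulate the passenger complex the median log2 ratio was -1.02. Of them, 6 were lower by more than 3-fold, against 2.75% of all genes. Under the normexp correction 3 of the 6 (BUB1, KIF20A and CBX3) were past it. The 6 included BUB1, the kinase that marks histone H2A for the complex. BUB1 went from 220 to 10.2 with a log2 ratio of -4.42 and was the lowest of the list. The kinesin KIF20A, which carries the complex to the central spindle, gave -4.38 ± 0.34 (SD over 10 spots). TTK and SGO1, a kinase of the spindle checkpoint and a centromere protector that binds the complex, were at least 11.2-fold and at least 8.22-fold lower. CBX3, a heterochromatin protein, went from 13895 to 4260 with a log2 ratio of -1.71, and KLHL13, an adaptor of the CUL3 ligase that removes Aurora B from chromosomes, gave -1.80. HASPIN, the kinase that writes the histone mark read by survivin, was dim with control siRNA at 11.8 and was at least 1.52-fold lower. CBX1, at 0.16, was the highest of the list by brightest probe. CUL3 gave 0.12 by its brightest probe and 1.17 by its other one.

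Of 11 measured Aurora A partners and substrates 4 lay below and 1 above the 3-fold lines, against 2.75% and 3.37% of all genes. The median log2 ratio was 0.08, with -0.05 to 0.12 over the settings, so the list was split. The 4 lower ones were HMMR, a spindle protein that helps to place TPX2, at -4.42, TACC3, which Aurora A phosphorylates to hold it on spindle fibres, at -2.77, and the kinesins KIF15 and KIF11 at -2.27 and -2.16. Under the normexp correction HMMR and TACC3 were past 3-fold. NEDD9, a scaffold protein of focal adhesions that can also activate Aurora A, went from 33.5 to 107 with a log2 ratio of 1.67 and was not past 3-fold under the normexp, quantile and median-scaling settings or with its probes averaged, its other probe giving 1.16. PLK1, the kinase switched on by Aurora A and Bora, was not analysed here, and CLTC was not well above background on either array.

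The relatives of NEK2 and survivin and the linker that NEK2 acts on were described in the same way. With 2.75% of all genes lower and 3.37% higher by more than 3-fold, lists of this size would hold few such genes or none, so counts of 0 in them do not set them apart. None of the 8 other NEK kinases measured was past 3-fold in either direction, from NEK4 at -0.97 to NEK8 at 0.88. None of the 10 genes of the centrosome linker and its control was past it either, from CCDC102B at -0.96 to CEP250, the docking protein of the linker, at 0.69. Both counts were 0 under each of the 10 settings. Of the 6 other members of the inhibitor of apoptosis family, to which survivin belongs by its BIR domain, none was lower by more than 3-fold, with BIRC2 lowest at -0.81. BIRC3 was not well above background with control siRNA and had a signal of 74.7 with periostin siRNA, at least 9.20-fold higher, but under the normexp correction it was not past 3-fold. These are counts from single arrays and no difference between the lists was tested.

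Of the 7 genes that remove Aurora kinases and Bora, 3 were lower by more than 3-fold, against 2.75% of all genes. These were CDC20, UBE2C and UBE2S, an activator and the 2 ubiquitin-conjugating enzymes of the anaphase-promoting complex, at -3.93, -4.85 and -1.76. The same 3 were past 3-fold under each of the 10 settings. BTRC, part of the ligase that marks Bora, was the highest of this list at 0.66, and FZR1, the activator that directs Aurora A to destruction after mitosis, gave -0.10. Of the 13 factors that act on mitotic promoters none was past 3-fold in the setting reported. MYBL2 and FOXM1 were the lowest at -1.55 and -1.38, with errors of 0.23 and 0.20, and MYBL2 was past 3-fold with quantile normalization and with scaling on the median or the spike-in probes. LIN54, the CHR-binding subunit, gave -0.40, and the NF-Y subunits NFYA, NFYB and NFYC gave -0.16, 0.27 and 0.44, with NFYC the highest of the list.

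**Figure D4:**
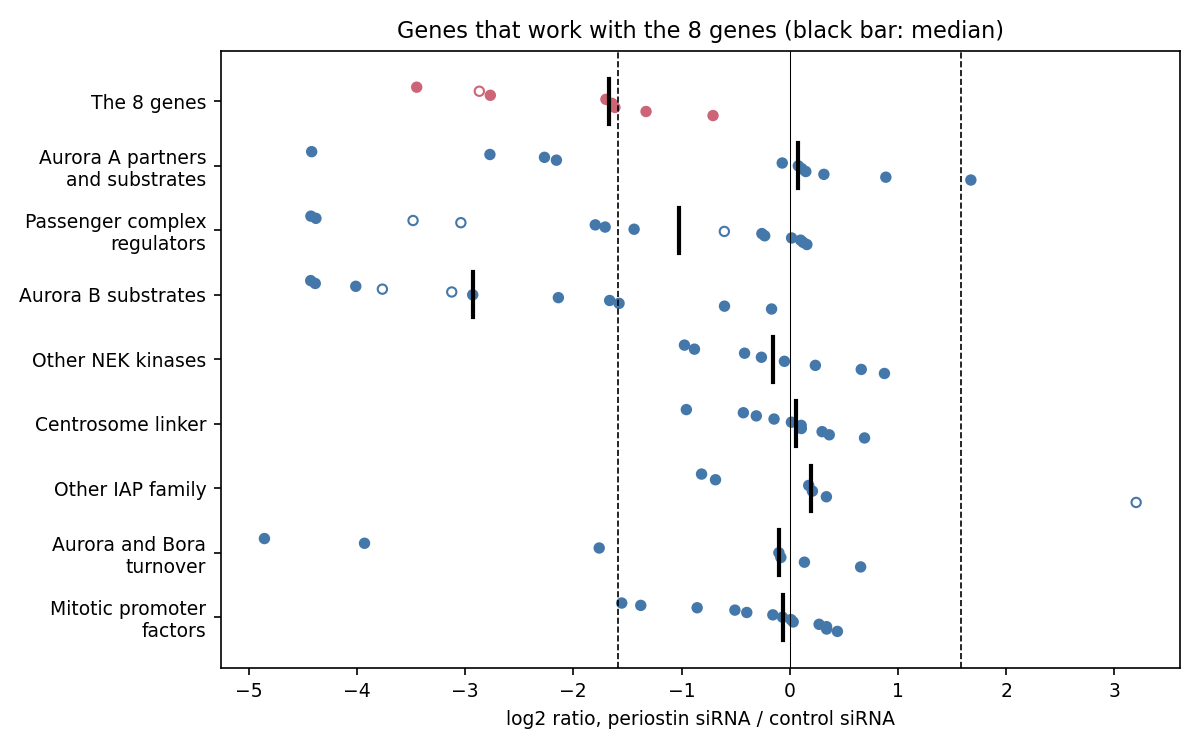
The log2 ratio (periostin siRNA over control siRNA) of each measured gene in the 8 genes (red) and in 8 lists of partners and relatives (blue), with open points for bounds, a black bar at each median and dashed lines at 3-fold. Aurora B substrates and passenger complex regulators reach below -4 with medians of -2.93 and -1.02. Aurora A partners and the turnover genes also reach below -4, with medians of 0.08 and -0.10. The other NEK kinases and the linker genes stay between the dashed lines.

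Of the 8 genes, 6 belong to the G2/M list of 54 genes in the Seurat package, INCENP and BORA being the ones outside it. The 47 other measured genes of that list had a median log2 ratio of -2.34, while the median over all genes was 0.06. Of these 47 genes, 29 were lower by more than 3-fold, against 2.75% of all genes. The median of the 8 genes, -1.67, was less negative than that of the 47. It includes INCENP (-0.71) and BORA (-1.70), which are outside the list, so the 2 medians do not compare like with like. The 6 genes within the list fell on both sides of the median of the rest. BIRC5, CDCA8 and NEK2 (a bound) lay below it and AURKA, AURKB and TPX2 above it. These differences were not tested.

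The normexp correction was the one setting that moved most of these ratios. It gave -3.26 for BIRC5 and -2.47 for CDCA8, still past 3-fold, while NEK2, AURKB and BORA, whose control signals were 56.7, 79.3 and 123, went to -0.80, -0.75 and -0.97. Under the other settings, most of which move all genes alike, each ratio kept its sign. AURKA stayed between -1.46 and -1.28 there and TPX2 between -1.77 and -1.60.

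**Figure D5:**
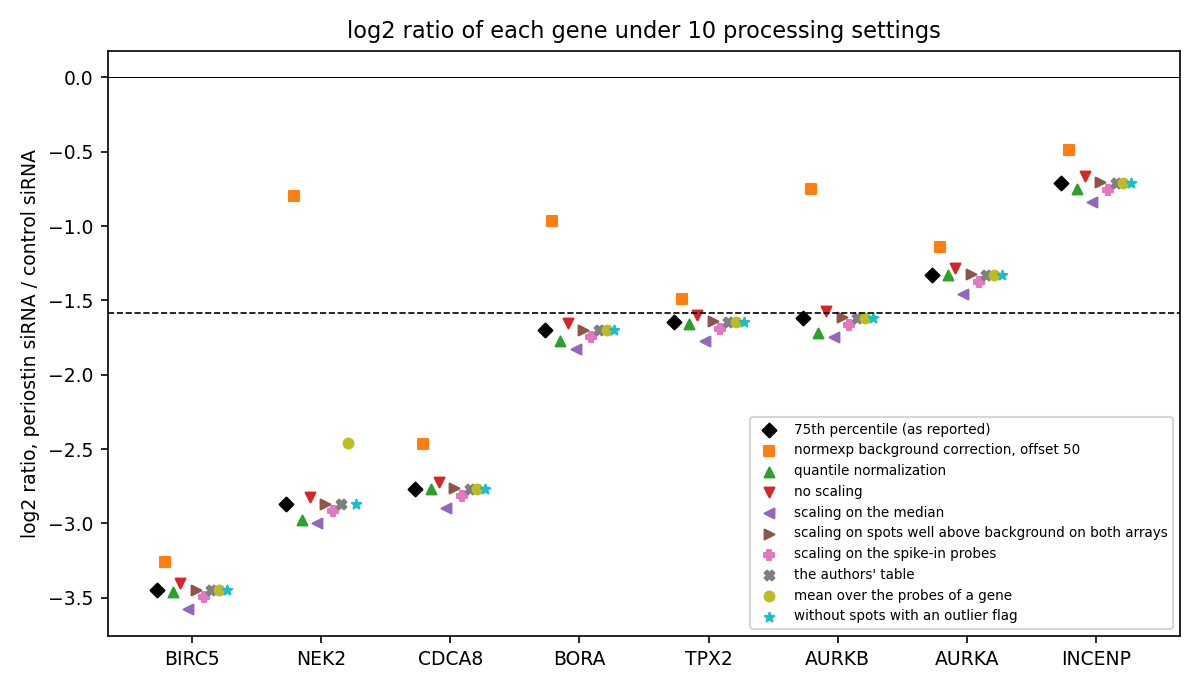
The log2 ratio of each of the 8 genes under 10 processing settings (markers), with the dashed line at 3-fold lower. All points lie below 0, and the orange squares of the normexp correction stand apart for NEK2, BORA and AURKB, whose signals are dim.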

How the data were processed

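Total RNA of 1 MRC-5 culture per condition was labelled with Cy3. The authors deposited 1 scanner output per array (Agilent Feature Extraction 11.5.1.1 in the headers, 12.0.3.1 in the submitters' processing notes), holding background-subtracted intensity not scaled between arrays. Both arrays lay on 1 slide. A deposited table of normalized intensity, which for probes printed once is the scanner intensity times 1 factor per array, served as an alternative. The dose of the control siRNA is not given apart in the labels.

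Here the processed signal was scaled on the 75th percentile of non-control spots and put on the log2 scale (Python 3.11.15, pandas 2.3.3), and normexp and quantile normalization used limma 3.58.1. RefSeq accessions named 65.1% of spots. Repeat spots were averaged as log2 values, and the brightest probe stood for a gene. For a probe well above background on 1 array alone, the dim side was raised to the array's lowest signal well above background where it was below it, and the result was written as at least that fold. Probes dim on both arrays had no ratio. The genes and lists were chosen with earlier results of these data known. The text names the 8 genes, POSTN and, of each list, the genes past 3-fold, the highest and the lowest. FOXM1, LIN54, NFYA, NFYB, HASPIN, FZR1, CUL3 and the markers without such a place were named after their values were seen. The G2/M list came from Seurat 5.3.0. The ratio and the 3-fold call were tested on simulated data. Changes were placed there only in genes with a spot above the 75th percentile of the control array, so changes in dimmer genes were not covered. 1 marker gene is not reported here. The number of arrays limits the precision.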

Additional observations from a re-analysis of the deposited data

How the results depend on the processing

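With periostin siRNA, POSTN and the median of the 8 genes were below 0 under every alternative run. The normexp background correction gave a POSTN log2 ratio of -2.99, a median of -1.05 for the 8 genes, and 2 of the 8 and 190 of all genes lower by more than 3-fold. Genes higher by more than 3-fold made up 42.9% of those past it in either direction, against 55.1% in the setting reported. Its offset, added to both arrays, pulls dim ratios towards 0 by construction. With scaling on the median, the median over all genes moved by -0.13 and that of the 8 genes was -1.80. At 2-fold 1031 and at 4-fold 274 genes were lower, and 3 of the 8 genes were past 4-fold. None of the 72 ratios of the 8 genes under the other settings changed sign, but most of these signs were fixed in advance. Settings that differ only in scaling, and the deposited table, shift all genes alike, at most by the -0.13 given above. The ratio nearest 0 was -0.71, for INCENP. No spot of the 8 genes had an outlier flag, and NEK2 alone had a second probe to average. Only the normexp and quantile settings could have altered a sign. No paired analysis was possible because there was a single array for either condition, so no replicate could be left out, and both arrays lay on 1 slide, so slide was not fitted as a block. Signal over background limits NEK2, AURKB and BORA, and variation between cultures was not measured.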

Other observations

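The promoter elements of the 8 genes were also counted over all genes with a promoter in the table, where a gene counts if any of its promoters holds the letters. TTTGAA was present in 30.2% of the 321 such genes lower by more than 3-fold with periostin siRNA, in 14.7% of the 407 higher by more than 3-fold and in 14.3% of the 12407 with a ratio. CCAAT was present in 52.0%, 34.9% and 42.2% of these genes. A CHR form together with CCAAT was present in 18.4%, 3.93% and 6.69%. These shares are descriptions over genes of 1 pair of arrays, with no test.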
